A study of Mus musculus with 8 samples.

Results

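Chromatin accessibility was compared between mammary gland epithelial cells that had received only one of the stimuli of the epithelial-mesenchymal transition (EMT): the Ras oncogene or TGF-β. The compared samples were the 4 libraries of untreated EpRas cells (2 replicates) and of EpH4 cells given TGF-β (2 replicates), out of 8 in the series. The 2 libraries of untreated EpH4 cells served as the reference, and the 2 libraries of EpRas cells given TGF-β were set beside the comparison as a readout that defined nothing. EpH4 is a mouse mammary gland epithelial cell line without active H-Ras, and EpRas is its derivative transformed with active H-Ras. TGF-β was TGF-beta3 at 1 ng/ml for 8 days, with medium changes and splitting of the cells on a fixed schedule. EpH4 cells were grown in 10% and EpRas cells in 4% fetal bovine serum, so that Ras, the serum and any other difference between a parental line and its single derivative cannot be told apart in what follows. "Ras alone" therefore names the untreated EpRas line, and "TGF-β alone" names treated EpH4 cells.

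FAIRE-seq recovers the DNA that is not held by nucleosomes after cross-linking, and its peaks mark accessible promoters and enhancers. TGF-β signals through receptor kinases that phosphorylate Smad2 and Smad3, which enter the nucleus with Smad4 and bind DNA together with other factors. Active Ras signals through the MAP kinase cascade, whose known nuclear endpoints are AP-1 factors (Fos and Jun dimers) and ETS factors. In mammary epithelium both signals are known to act together in EMT, in which cells lose junction proteins such as E-cadherin and acquire mesenchymal genes.

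Peaks of the 6 libraries from untreated EpH4, TGF-β-treated EpH4 and untreated EpRas cells were merged into 29228 regions wherever they overlapped by at least 1 bp. A region was open in a group when both replicates had a peak in it and closed when neither had one. The first 4 of the following sequences each lead a class of regions described below by the score of their peaks. They are joined by the promoter of Cdh1, the gene of E-cadherin, which was chosen after its values were seen. Each is the plus strand of GRCm38 (mm10), the whole region or its central 300 bases, 5′ to 3′, and capitals mark exact matches on either strand to the motifs AP1 (TGAGTCA), RUNX (TGTGGTT) and the Snail and Zeb E-box (CAGGTG).

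Opened by Ras alone, upstream of Uaca, chr9:60782475-60782774: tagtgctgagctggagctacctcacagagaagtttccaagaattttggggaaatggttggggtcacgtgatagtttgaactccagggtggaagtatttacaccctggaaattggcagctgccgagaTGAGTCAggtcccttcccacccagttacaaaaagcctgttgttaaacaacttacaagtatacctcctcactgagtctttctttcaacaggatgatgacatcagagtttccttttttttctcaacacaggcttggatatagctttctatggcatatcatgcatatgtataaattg

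Opened by TGF-β alone, intron of Slc24a2, chr4:87078721-87079020: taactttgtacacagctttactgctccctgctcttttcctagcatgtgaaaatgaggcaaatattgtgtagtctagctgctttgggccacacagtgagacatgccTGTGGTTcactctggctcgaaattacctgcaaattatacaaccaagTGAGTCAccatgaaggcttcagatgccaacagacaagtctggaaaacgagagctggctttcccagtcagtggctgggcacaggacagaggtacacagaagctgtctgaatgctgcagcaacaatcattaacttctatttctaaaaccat

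Opened alike, promoter of Ppm1g, chr5:31220530-31220825: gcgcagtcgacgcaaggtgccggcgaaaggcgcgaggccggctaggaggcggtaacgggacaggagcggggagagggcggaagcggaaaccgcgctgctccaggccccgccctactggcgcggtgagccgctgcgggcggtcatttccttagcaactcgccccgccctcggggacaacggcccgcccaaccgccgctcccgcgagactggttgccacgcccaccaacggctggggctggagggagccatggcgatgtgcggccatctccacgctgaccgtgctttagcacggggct

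Closed by TGF-β alone, intron of Gm34562, chr15:51621537-51621836: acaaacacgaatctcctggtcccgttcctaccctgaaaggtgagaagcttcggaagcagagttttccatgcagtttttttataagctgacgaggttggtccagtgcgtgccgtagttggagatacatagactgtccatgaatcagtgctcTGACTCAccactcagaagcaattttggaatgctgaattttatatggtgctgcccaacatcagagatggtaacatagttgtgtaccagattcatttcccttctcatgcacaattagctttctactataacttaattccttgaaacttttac

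Closed by Ras alone, promoter of Cdh1, chr8:106603129-106603428: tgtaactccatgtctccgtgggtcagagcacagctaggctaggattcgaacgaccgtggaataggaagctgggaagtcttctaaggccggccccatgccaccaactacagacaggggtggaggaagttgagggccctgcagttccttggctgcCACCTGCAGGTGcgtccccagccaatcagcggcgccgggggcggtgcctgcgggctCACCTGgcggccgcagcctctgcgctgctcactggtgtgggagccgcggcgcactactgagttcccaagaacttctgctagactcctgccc

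An AP1 match stood in 3 of these 5 windows, 1 opened by Ras alone, 1 opened by TGF-β alone and 1 closed by TGF-β alone. The window at the Ppm1g promoter held a match to none of the 8 motifs searched. The Cdh1 window held 3 E-box matches, and those at positions 154 to 159 and 160 to 165 of the window were adjacent.

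The 4 compared libraries held between 10821 and 17927 peaks: the EpRas replicates had 17210 and 13784, and the TGF-β-treated EpH4 replicates 17927 and 10821. Untreated EpH4 cells gave 12462 and 13092 peaks, and EpRas cells given TGF-β gave 27337 and 16833. On the log2 scale EpRas and TGF-β-treated libraries differed by 0.15, with 2 libraries a group and a two-sided exact permutation p of 1, against a smallest possible p of 0.333. The files give peaks without read counts, so that the sequencing depth is unknown, and the score of a peak was used only as its percentile within its own list (0 lowest, 100 highest). Promoters of epithelial marker genes were called in 7 and 7 of 10 cases in TGF-β-treated EpH4 cells, in 6 and 5 without TGF-β, and in 3 and 1 in untreated EpRas cells. The Cldn3 promoter was called in both EpRas libraries and that of Elf3 in one, and Krt19 had no region in any library. Among 13 markers of haematopoietic, endothelial and neuronal cells, only the Csf1r promoter was called, in both TGF-β-treated EpH4 libraries.

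Direct comparison of both single stimuli showed that they left different sets of regions open, at equal list lengths by a margin wider than that between replicates. With lists cut to the 10821 best-scored peaks, between 34.3% and 34.7% of the peaks of an EpRas or TGF-β-treated EpH4 library were missing in its replicate, and 35.7% in untreated EpH4 cells. Between EpRas and TGF-β-treated EpH4 libraries the missing share was between 42.6% and 45.8%, so that all 4 pairs of libraries lay above the replicate pairs. Of the 10683 regions open in EpRas cells, 45.4% (95% Wilson interval 44.5 to 46.4) were not open in TGF-β-treated EpH4 cells, and of the 9112 regions open in the latter, 35.99% (35.0 to 37.0) were not open in EpRas cells. With equal list lengths both shares were near each other, at 44.4% and 44.1%. These intervals, like all others given here, cover counting error only. On the same measure, 34.9% of the regions open in treated EpH4 cells were not open in untreated EpH4 cells, and 35.9% with equal list lengths. Of the regions open in EpRas cells, 45.4% were not open in untreated EpH4 cells, and 43.8% with equal list lengths. As the share of covered bases found in both equal-length lists, replicate pairs reached 0.432 to 0.453. Treated against untreated EpH4 libraries reached 0.397 to 0.433, near the replicate pairs. EpRas libraries reached 0.361 to 0.367 against untreated and 0.338 to 0.373 against treated EpH4 libraries. By this measure EpRas libraries differed about as much from untreated as from treated EpH4 libraries. Called in both replicates of one group and in neither of the other were 2072 regions on the EpRas side (7.09% of the 29228) and 1685 on the TGF-β side (5.77%).

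The reference lists then divided the regions into 6 classes. Ras alone opened 1340 regions (4.58% of all regions), TGF-β alone opened 615 (2.10%), and 324 (1.11%) were opened alike, that is, closed in untreated EpH4 cells and open in both other groups. Ras alone closed 565 regions (1.93%), TGF-β alone closed 196 (0.671%), and 257 (0.879%) were closed alike. A further 4555 regions were open in all 3 groups. Both stimuli are measured against the same untreated EpH4 libraries, so that a region missed in these libraries counts as opened by both. With equal list lengths the 6 counts were 784, 468, 171, 602, 206 and 369 in the same order. The lead of Ras over TGF-β among opened regions and among closed regions was present at either list length. Of the 1340 regions opened by Ras alone 40.5% overlapped a region of the same class in the equal lists, and of the 565 closed by Ras alone 58.9% did. Single libraries carried much weight: TGF-β alone opened 3473 regions when its second replicate was left out, and Ras alone opened 4299 without the second EpRas replicate. Without the first TGF-β replicate, TGF-β alone closed 1163 regions and Ras alone 628, so that the lead of Ras was inverted in each direction by leaving out one TGF-β library.

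**Figure D1:**
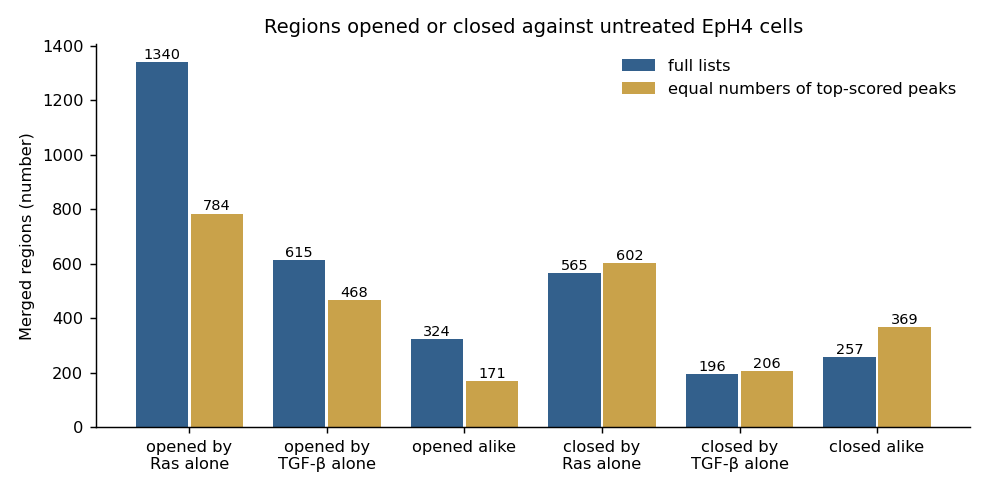
Bars give the number of merged regions in each class (vertical axis, from 0), with blue for the full peak lists and yellow for lists cut to the same number of best-scored peaks. Ras alone opened the most regions at either list length (1340 and 784), and the regions closed alike numbered 257 and 369 with full and equal lists.

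Regions opened by a single stimulus were on the whole lower-scored peaks. The median score percentile of regions opened by Ras alone was 40.2 and 36.7 in the EpRas libraries, and that of regions opened by TGF-β alone was 36.8 and 32.9 in the TGF-β libraries. Regions closed by Ras alone had medians of 46.0 and 52.8 in untreated and 61.2 and 46.5 in treated EpH4 cells. Regions open in all 3 groups had medians between 67.7 and 80.4 in the 6 libraries. The leading members of each class stood well above these medians.

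The region with the strongest score among those opened by Ras alone lay 11.9 kb upstream of Uaca, which encodes an ankyrin-repeat and coiled-coil protein linked to the apoptosome. This region reached percentiles of 98.2 and 99.2 in the EpRas libraries, had no peak in any of the 4 EpH4 libraries, and reached 94.5 and 77.1 in EpRas cells given TGF-β. A second region, in an intron of Uaca (chr9:60848699-60849115), reached 99.5 and 97.4, and again 99.2 and 99.6 with TGF-β. Both belong to a stretch between Larp6, an RNA-binding protein of collagen mRNAs, and Uaca (chr9:60718329-60849115) with 7 such regions among 14. In this stretch the EpRas libraries called 12 and 13 of the 14 regions, the TGF-β-treated EpH4 libraries 4 and 3, and the untreated EpH4 libraries 3 and 3. All 4 regions nearest to Larp6 were opened by Ras alone, and all 4 were called in both EpRas libraries given TGF-β.

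The next regions by score lay on chromosome 4 near the gene models Gm37530 and Gm21586, in a part of the genome with near-identical copies. There the placement of reads is uncertain. A similar stretch on chromosome 5 (chr5:15484688-15680617, around Speer4d) held 6 regions opened by Ras alone among 15. In this stretch the EpRas libraries called 13 and 9 regions and the TGF-β-treated EpH4 libraries none. Among protein-coding genes, Lingo2, which encodes a leucine-rich repeat membrane protein, was nearest to the largest number of regions opened by Ras alone (5 of its 11). The EpRas libraries called 10 and 6 of these 11 regions, against 2 and 0 in TGF-β-treated and none in untreated EpH4 cells. Col22a1, a collagen gene, was nearest to 5 regions, of which 4 were opened by Ras alone, and no EpH4 library had a peak in any of the 5. It was one of 7 genes nearest to 4 such regions, like Larp6, Akap2, an anchor of protein kinase A, and Celf2, a splicing regulator. Lingo2 and Akap2 lie on chromosome 4, Celf2 on 2 and Col22a1 on 15. On chromosomes 4, 2 and 15, Ras alone opened 7.33%, 7.53% and 7.36% of the regions, against 4.58% of all regions. Larp6 lies on chromosome 9, with 2.44%. The part of the chromosomes was not tested.

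Regions opened by TGF-β alone were led by an intronic region of Slc24a2, a sodium-calcium-potassium exchanger, with percentiles of 90.2 and 95.8 in the TGF-β libraries. In EpRas cells given TGF-β it was called at lower percentiles, 47.1 and 62.2. The region 4.88 kb upstream of Aqp3, the gene of a water and glycerol channel of epithelia, reached 83.9 and 95.5 and had no peak in any EpRas library, with or without TGF-β. Another lay in an intron of Col27a1, a fibrillar collagen gene that hosts the microRNA gene Mir455, at 90.3 and 89.4. Trabd2b, a metalloprotease that acts on Wnt proteins, was nearest to 5 of these regions, all within the stretch chr4:114336338-114472497. The TGF-β libraries called 8 and 5 of the 8 regions there, the untreated EpH4 libraries 0 and 1, the EpRas libraries 1 and 0, and none of its 5 TGF-β-opened regions was called in both EpRas libraries given TGF-β. On chromosome 10 a stretch near 1500009L16Rik and Nuak1 had 7 regions, of which the TGF-β libraries called 7 and 4 and neither untreated EpH4 nor EpRas cells called any.

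Regions opened alike were few, and their leaders were start sites of genes used by every cell. The top 5 were the promoters of Ppm1g, a nuclear phosphatase, Nop56, a ribosome assembly factor, Rps6kb2, a ribosomal S6 kinase, Clpp, a mitochondrial protease, and Ddx56, an RNA helicase. At Nop56 the percentiles were 50.6 and 80.1 with TGF-β alone, 87.3 and 96.0 with Ras alone, and 94.9 and 74.2 with both. At Ppm1g they were 95.9 and 81.8 with TGF-β and 66.4 and 79.5 in EpRas cells, but neither library with both stimuli had a peak. A start site that is missed in both untreated EpH4 lists enters this class as well, and Tbp, one of the control genes, did so at its own promoter, with percentiles between 50.0 and 78.3 in the 4 libraries.

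Regions closed by Ras alone were the strongest of the closed ones. The intronic region of Vsig10, an immunoglobulin-domain membrane protein, had percentiles of 99.3 and 99.0 in EpH4 cells without TGF-β, 91.0 and 98.4 in those with it, and no peak in any of the 4 EpRas libraries. The promoter of Taok3, a stress-activated kinase, reached 93.2, 94.3, 98.2 and 95.6 in the same 4 EpH4 libraries and no peak in untreated EpRas cells, but 83.6 and 93.0 in EpRas cells given TGF-β. The region 6.78 kb upstream of P2rx7, an ATP-gated channel, stood at 98.5, 98.5, 86.7 and 96.6 in the EpH4 libraries and at 82.6 and 46.4 in EpRas cells given TGF-β. All 3 lay on chromosome 5. Dll1, a Notch ligand, Flt1, a VEGF receptor, Fst, the activin antagonist follistatin, Foxp1, a transcription factor, and Basp1 were among the 9 genes nearest to 3 regions closed by Ras alone. Of the 8 regions nearest to Fst, untreated EpH4 libraries called 6 and 5, TGF-β-treated ones 3 and 4, and EpRas libraries none.

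TGF-β alone closed the fewest regions, and these were weaker. The leading one, in an intron of the non-coding gene Gm34562, had percentiles of 70.2 and 80.5 in untreated EpH4 and 89.8 and 73.4 in EpRas cells. The others of the top 5 lay near Camsap2, which caps microtubule minus ends, near Lcor, a nuclear receptor corepressor, near Gm44720, and close to a start site of Nfe2l1, a transcription factor of proteasome genes. Another peak within 2 kb of an Nfe2l1 start site was present in both TGF-β-treated EpH4 libraries, at 72.8 and 55.2. Foxa2, a pioneer factor of endoderm, was nearest to 10 regions, of which 2 were closed by TGF-β alone. Untreated EpH4 libraries called only 2 and 3 of these 10 regions, TGF-β-treated EpH4 libraries 1 and 0, and EpRas libraries 10 and 5. Closed alike were, among others, a region 30.5 kb from Ssr1, the promoters of Pdlim5, a cytoskeletal adaptor, and Vps11, an endosomal sorting protein, and regions close to start sites of Epha1, an ephrin receptor, and Acsl3, a fatty acid ligase. Other peaks at the Acsl3 promoter were called in both EpRas libraries (87.9 and 71.0), and one TGF-β-treated EpH4 library had another peak at each of these promoters (45.0 at Epha1 and 67.2 at Acsl3). The regions at Ssr1, Epha1 and Acsl3 had no peak in either EpRas library given TGF-β.

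**Figure D2:**
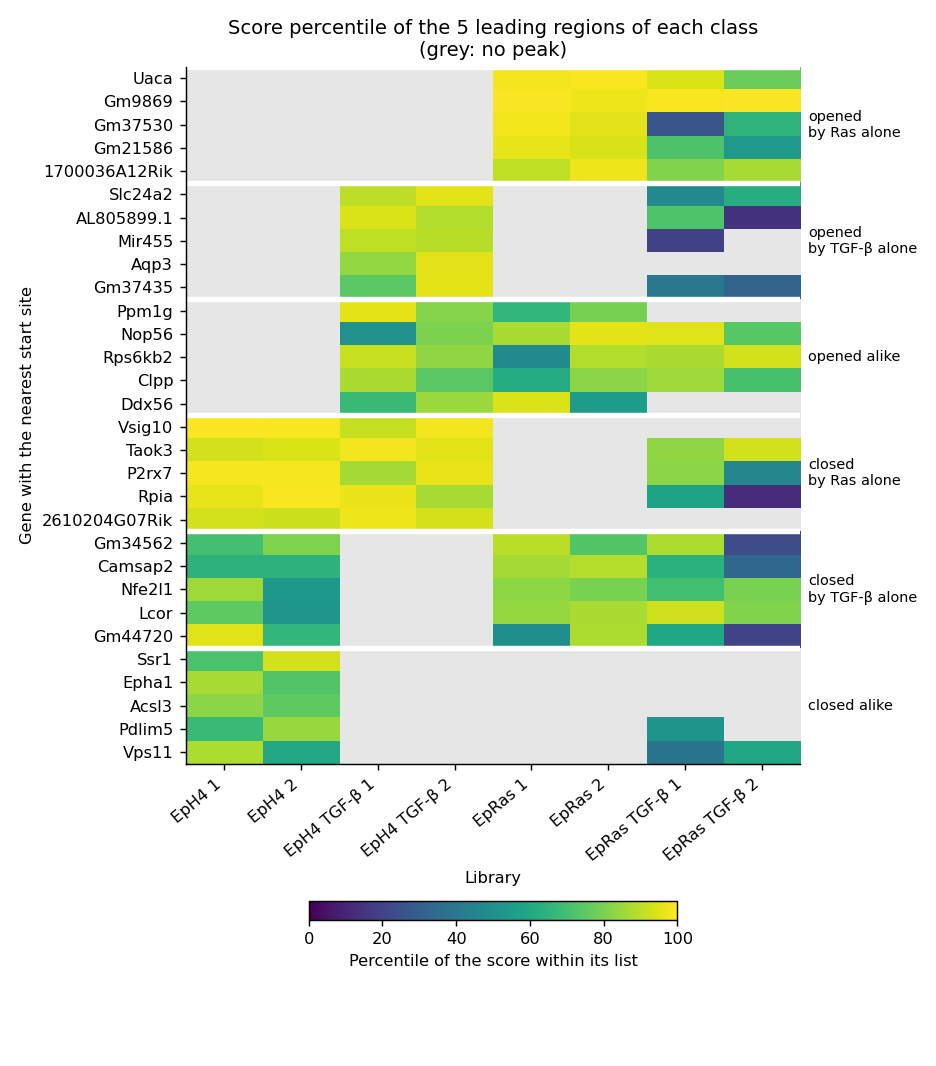
Each row is one of the 5 leading regions of a class, named by the gene with the nearest start site, each column is a library, and the colour gives the percentile of its peak score within that library's list, with grey for no peak. The grey blocks among the first 6 libraries follow from how the classes were defined, and the last 2 libraries, EpRas cells given TGF-β, were not used to define them.

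The classes were spread unevenly over chromosomes, and so were the peaks of the lines themselves. Chromosome 6 held 4.21% and 4.00% of the peaks of EpRas cells, 4.46% and 4.36% with TGF-β added, but 6.44% and 6.80% in TGF-β-treated and 6.29% and 6.17% in untreated EpH4 cells. Of the regions on chromosome 6, 3.39% were closed and 1.76% opened by Ras alone. The order was inverted on chromosome 12, with 3.21% and 3.11% of EpRas peaks, 1.86% and 1.34% of TGF-β-treated EpH4 peaks, and 0.25% of its regions closed against 8.57% opened by Ras alone. Chromosome 5, where the leading closed regions lay, had 3.81% of its regions closed by Ras alone. Chromosome 13, where Fst and Dsp lie, had 3.95%, against 1.93% of all regions. Chromosome 5 held 5.76% and 5.51% of EpRas peaks, against 7.71% and 7.71% in untreated and 7.11% and 7.57% in treated EpH4 cells. Genes named below also lie on chromosomes with uneven shares, Etv6 on 6, Etv1 on 12, and Trp63, Etv5, Runx1 and Ets2 on 16. Without chromosomes 6, 12, 14, 16 and 18, Ras alone opened 1140 and closed 465 regions and TGF-β alone opened 494 and closed 165. Chromosomes 2, 4, 5, 13 and 15 stayed in these counts. The part of the uneven peak shares of the other chromosomes in the classes was not tested. TGF-β-treated and untreated EpH4 libraries differed less, from 6.17% to 6.80% on chromosome 6.

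At Cdh1, the gene of E-cadherin, regions were closed by Ras alone and not by TGF-β alone. Its promoter region had percentiles of 60.4 and 51.8 without and 54.3 and 40.8 with TGF-β in EpH4 cells, and no peak in any EpRas library. An intronic region 12.8 kb into the gene (chr8:106616036-106616334) was also closed by Ras alone, with 14.8 and 74.0, then 74.4 and 79.1. Another, 16.4 kb into the gene (chr8:106619650-106619895), was instead opened by Ras alone, at 33.7 and 58.4, but not with equal list lengths. The promoter and the first intronic region kept their class with equal lists.

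A list of 21 genes of epithelial junctions and epithelial splicing, Cdh1 among them, was counted over each gene and 20 kb on either side. Ras alone closed 7 regions at 4 of the 21 genes, none was closed by TGF-β alone or alike, and 4 genes had more regions open in TGF-β-treated EpH4 than in EpRas cells, against 0 with more in EpRas cells. Over all 21924 protein-coding genes, 2.42% had a region closed by Ras alone, 1.25% one closed by TGF-β alone and 1.40% one closed alike. With shares this low, 0 of 21 genes cannot be told apart from all genes. More regions were open in TGF-β-treated EpH4 cells at 4.00% of all genes, and in EpRas cells at 8.38%. The 4 genes with regions closed by Ras alone were Cdh1, Dsp, which encodes desmoplakin of desmosomes, and the neighbouring tight junction claudins Cldn3 and Cldn4. The claudins lie on chromosome 5 and Dsp on chromosome 13, where 3.81% and 3.95% of regions were closed by Ras alone, against 1.93% of all regions. The part of these chromosomes was not tested. Both regions counted at Cldn3 lay within 2 kb of the start site of the antisense gene Wbscr25, not at the Cldn3 promoter. The Cldn4 promoter reached 53.1 and 81.2 in untreated and 75.4 and 57.3 in TGF-β-treated EpH4 cells, no peak in EpRas cells, and 23.7 in one EpRas library given TGF-β. The region 6.13 kb upstream of Dsp stood between 60.5 and 74.2 in all 4 EpH4 libraries and had no peak in any EpRas library. The promoter of Cldn3 itself kept a peak in both EpRas libraries, and so did those of Tjp3, Jup and F11r. In the opposite direction, Ras alone opened a region at 40.2 and 78.8 inside the polarity gene Crb3, within 2 kb of its start and of that of Slc25a23, while one library each of untreated and treated EpH4 cells had another peak at the Crb3 promoter.

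TGF-β alone opened regions at 2 of 16 genes of epithelial identity factors, Grhl2 and Trp63, against 2.75% of all protein-coding genes. A region at the start site of Grhl2, a factor that maintains epithelial junction genes, reached 68.7 and 70.0 with TGF-β alone and had no peak within this region in the other 6 libraries, but one untreated EpH4 library had another peak at this promoter, at 59.4. At Trp63, the p63 gene of basal cells, 1 intronic region was opened by TGF-β alone and 2 were closed by Ras alone. A region within Klf4 was closed alike, at 27.7 and 74.6 in the untreated EpH4 libraries. Esrp2, an epithelial splicing factor, had a promoter peak in both TGF-β-treated EpH4 libraries (68.9 and 0.91) and in one EpRas library (58.9), and none in untreated EpH4 cells.

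Of 20 mesenchymal and matrix genes 1 had a class region, against 15.1% of all protein-coding genes. This was Spp1, the gene of osteopontin, where a promoter region was opened by Ras alone at 45.2 and 41.1, with no promoter peak in any EpH4 library. Of these 20 genes, 4 had more regions open in EpRas and 0 more in TGF-β-treated EpH4 cells, where 8.38% and 4.00% of all genes did. Cdh2, the gene of N-cadherin, had 2 and 1 of its 3 regions called in EpRas cells and none in the 4 EpH4 libraries, but no single region was called in both replicates. The Fn1 promoter, of fibronectin, was called in both TGF-β-treated EpH4 libraries (82.8 and 81.3), both EpRas libraries (27.6 and 71.5) and one untreated EpH4 library (51.7). Among 12 EMT transcription factors, a region 42.2 kb from the Gtdc1 start site and next to Zeb2 was opened alike at 3.85 to 60.4 in the 4 libraries, only with full lists, while Snai1 kept its promoter peak in all libraries. Mmp13 had 1 region, which was called in all 6 libraries and at no promoter.

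Genes of Ras signalling had regions opened by either stimulus. Of 22 feedback genes of Ras and MAP kinase signalling, 4 had regions opened by Ras alone, 2 by TGF-β alone and 2 opened alike, while over all protein-coding genes these shares were 6.71%, 2.75% and 2.15%. Etv1, an ETS factor of the Pea3 family, had its promoter opened at 51.7 and 61.0 in EpRas cells, and none of its 3 regions had a peak in any EpH4 library. This gene lies on chromosome 12, where 8.57% of regions were opened by Ras alone. Spred2, an inhibitor of the Ras to Raf step, had its promoter opened by Ras alone at 75.1 and 32.2. At Etv5, another Pea3 factor, each stimulus opened a different region: Ras alone an intronic one at 55.7 and 88.5, and TGF-β alone one 1.79 kb from the start site at 46.0 and 42.4, while other Etv5 promoter peaks were present in all 8 libraries. The Etv4 promoter had peaks in all 8 libraries, with 96.9 and 90.1 in untreated EpH4, 87.3 and 49.2 in TGF-β-treated EpH4 and 87.2 and 99.3 in EpRas cells. A region next to Phlda1, an early MAP kinase target, was opened alike, at 61.6 and 39.5 with TGF-β and 73.7 and 70.2 in EpRas cells.

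Of 27 genes of the TGF-β pathway, 4 had regions opened by Ras alone, 2 by TGF-β alone and 1 opened alike, and 2 had regions closed by Ras alone, against 6.71%, 2.75%, 2.15% and 2.42% of all protein-coding genes. TGF-β alone opened an intronic region of Smad3, which encodes a signal transducer of the pathway, at 43.0 and 49.2. It had no peak in EpRas cells given TGF-β. Ras alone opened a region at a start site of Cdkn1a, the p21 cell-cycle inhibitor, at 70.0 and 43.7, but other Cdkn1a promoter peaks were present in all 4 EpH4 libraries (4.84 and 17.1 without and 55.2 and 1.96 with TGF-β). Ras alone also opened 2 regions at Id1, a target of BMP signals, where one TGF-β-treated EpH4 library had another promoter peak. Of 13 integrin and laminin genes, 7 had a class region, against 15.1% of all protein-coding genes. Regions were opened by Ras alone at 3 genes, by TGF-β alone at 1 and alike at 2, against 6.71%, 2.75% and 2.15%. At 2 genes regions were closed by Ras alone and at 2 by TGF-β alone, against 2.42% and 1.25%. The region opened by TGF-β alone lay near Itga5, a subunit of the fibronectin receptor. This region reached 82.8 and 82.0 in the TGF-β-treated EpH4 libraries. It lay at the start of the gene model Gm37322, and no peak was at the Itga5 promoter itself in either of these libraries. At this region EpRas cells given TGF-β reached 68.4 and 76.8. Of 13 genes of matrix proteases and their inhibitors, 4 had a class region, against 15.1% of all protein-coding genes. Regions were opened by Ras alone at 2 genes, by TGF-β alone at 2 and closed alike at 1, against 6.71%, 2.75% and 1.40%. TGF-β alone opened 2 upstream regions of Mmp9, one at 84.1 and 27.5 and one, only with full lists, at 38.4 and 13.9. Ras alone opened an intronic region of Adam12 at 85.1 and 81.0.

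The remaining factor lists held single examples. Runx1 had a region at a start site opened by Ras alone at 45.8 and 53.7 and an intronic region opened by TGF-β alone at 32.2 and 72.2, while other Runx1 promoter peaks were present in all 4 EpH4 libraries. Of 12 AP-1 genes, 4 had class regions and 0 had one opened by Ras alone, against 15.1% and 6.71% of all protein-coding genes. Of 12 further ETS genes, Etv6 had 3 regions opened by TGF-β alone and Ets2 had 2 closed by Ras alone, of which one stood at 83.2, 85.7, 93.1 and 43.7 in the EpH4 libraries. Over all protein-coding genes, 2.75% had a region opened by TGF-β alone and 2.42% one closed by Ras alone. Etv6 lies on chromosome 6, where 3.81% of regions were opened by TGF-β alone. Ets2 lies on chromosome 16, where 2.85% of regions were closed by Ras alone. The part of these chromosomes was not tested. Of 12 genes of the EGF receptor family and its ligands, 2 had regions opened by Ras alone, against the same 6.71%. Class regions also stood at 2 of 6 control genes, Tbp and B2m, against the same 15.1%, while the Gapdh promoter had a peak in every library. Over all these lists, 40 of 74 class regions kept their class with equal list lengths.

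Outside promoters, regions closed and opened by Ras alone differed in the E-box CAGGTG, the letters bound by the repressors of the Snail and Zeb families. Of distal regions closed by Ras alone, 44.0% (198 of 450, 95% Wilson interval 39.5 to 48.6) held it within 500 bp around the midpoint, against 21.4% (205 of 959, 18.9 to 24.1) of those opened by Ras alone. Of regions opened by TGF-β alone 33.8% (29.8 to 38.1) held it, and 30.8% of all distal regions and 31.4% of windows shifted by 10 kb did. The share was 37.5% (30.8 to 44.7) in regions closed alike, which overlapped that of regions closed by Ras alone. In regions opened alike it was 23.6% (18.2 to 30.0), which overlapped that of regions opened by Ras alone. Regions closed by TGF-β alone had 28.8% (21.2 to 37.9). With equal list lengths, counted in the same merged regions, the shares were 40.2% for closed and 23.6% for opened by Ras alone and 34.8% for opened by TGF-β alone. The GC content, which affects such shares, was 47.9% in distal regions closed and 45.4% in those opened by Ras alone, 47.2% in those opened by TGF-β alone and 44.5% in the shifted windows, and its part was not tested. In single libraries, 27.6% and 27.4% of distal EpRas peaks held the E-box, against 32.1% and 31.5% in TGF-β-treated EpH4 cells. The means of 27.5% ± 0.184 and 31.8% ± 0.474 (SD, n = 2) lay apart without overlap, and the two-sided exact permutation p was 0.333, the smallest possible. Untreated EpH4 cells, at 32.9% and 32.7%, stood beside the treated ones, and EpRas cells given TGF-β, at 26.9% and 26.5%, stood beside untreated EpRas cells. The library shares of the ETS, RUNX, Smad, TEAD and GRHL motifs, described below, also reached the smallest possible p of this permutation test. Such a separation was thus not particular to the E-box.

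The AP1 shares of regions opened by either single stimulus had overlapping intervals. The motif was found in 51.1% (47.9 to 54.2) of distal regions opened by Ras alone and in 51.4% (47.0 to 55.7) of those opened by TGF-β alone, against 45.8% of all distal regions and 8.12% of shifted windows. Regions opened alike had the highest share, 63.6% (56.6 to 70.0), and regions closed alike the lowest, 31.0% (24.7 to 38.0), and the same order held with equal lists, at 69.5% and 34.5%. In whole libraries the share was 50.2% and 51.6% in EpRas and 50.4% and 51.8% in TGF-β-treated EpH4 cells, a difference of -0.18 percentage points with an exact permutation p of 0.667. The TEAD motif GGAATGT was in 19.8% (16.4 to 23.7) of distal regions closed and 11.2% (9.32 to 13.3) of those opened by Ras alone. With equal lists these were 16.6% (13.5 to 20.3) and 12.1% (9.57 to 15.1), with overlapping intervals.

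The palindromic Smad motif GTCTAGAC was rare: 9 of 500 distal regions opened by TGF-β alone held it (1.80%, 0.95 to 3.39), 2 of 959 opened by Ras alone (0.21%, 0.06 to 0.76), and 0.55% of all distal regions. With equal lists 7 regions opened by TGF-β alone and 0 opened by Ras alone held it. The RUNX motif TGTGGTT was in 16.2% and 18.8% of distal regions opened by Ras and by TGF-β alone, the ETS motif CCGGAAG in 2.50% and 1.20%. Both intervals of each pair overlapped. GRHL (AACCGGTT) and CEBP (TTGCGCAA) matches were in under 1% of the distal regions of every class. A match is a stretch of letters, and binding was not measured.

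**Figure D3:**
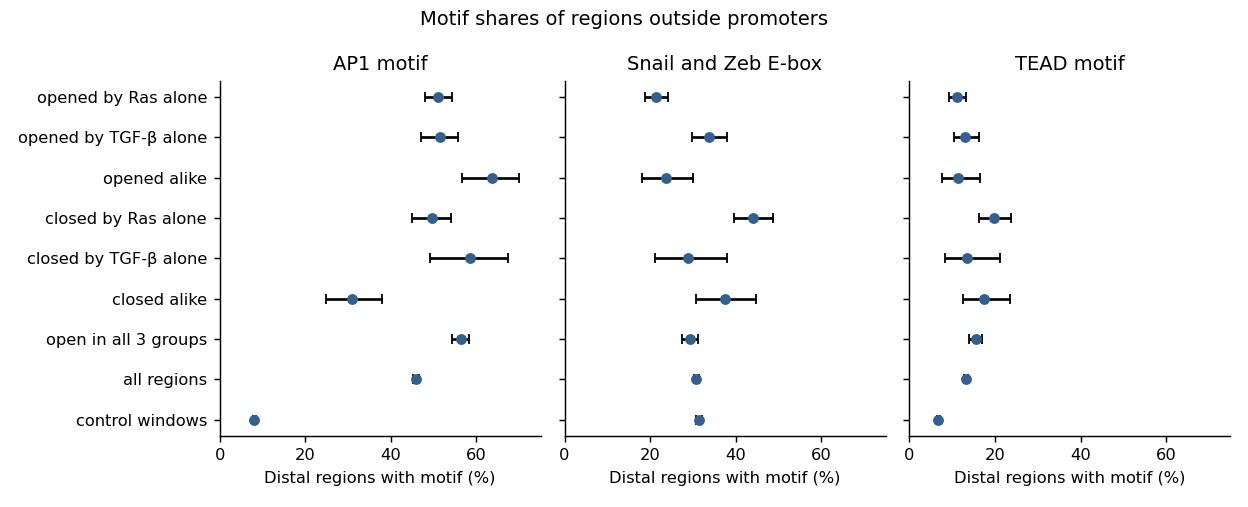
Points give the share of regions outside promoters (horizontal axis, percent) that hold the AP1 motif, the E-box or the TEAD motif, for each class, for all regions and for windows shifted by 10 kb, with 95% Wilson intervals as bars. The E-box separates regions closed (44.0%) and opened (21.4%) by Ras alone, while their AP1 shares overlap.

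Promoters, defined as 2 kb or less between the midpoint and a start site, made up 28.4% (26.1 to 30.9) of regions opened by Ras alone and 18.7% (15.8 to 22.0) of those opened by TGF-β alone, against 49.1% of regions open in all 3 groups and 35.6% of all. Of regions opened alike 39.8% (34.6 to 45.2) and of regions closed by TGF-β alone 43.4% (36.6 to 50.4) were promoters, the highest shares among the classes. With equal lists the shares were 32.4% and 21.5% for opened by Ras and by TGF-β alone, 52.0% for opened alike and 46.1% for closed by TGF-β alone. Introns held 37.4% of regions opened by Ras alone and 40.3% of those opened by TGF-β alone, and intergenic sequence 32.1% and 39.0%. In whole libraries, 41.0% and 42.3% of EpRas peaks and 37.8% and 40.4% of TGF-β-treated EpH4 peaks were at promoters, 41.7% ± 0.927 against 39.1% ± 1.85 (SD, n = 2), without overlap and with an exact permutation p of 0.333.

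EpRas cells given TGF-β, whose lists had defined none of the classes, showed which changes were found again when both stimuli met. Regions opened alike were called in both of these libraries in 79.0% of cases (74.3 to 83.1), and regions opened by Ras alone in 54.9% (52.2 to 57.5). Only 19.8% (16.9 to 23.2) of the regions opened by TGF-β alone in EpH4 cells were called in both, and 52.0% in neither. Regions closed by TGF-β alone, which are open in EpRas cells, were called in 76.5% (70.1 to 81.9), and regions closed alike in 10.5% (7.32 to 14.9). Regions closed by Ras alone were called in 25.5% (22.1 to 29.2) and called in neither library in 49.6%. Regions open in all 3 groups were called in 93.5% and all regions in 46.0%. The cells with both stimuli share line and serum with the untreated EpRas cells, so that the line and Ras cannot be told apart here either. The 2 libraries differed in length, and the share called in one alone was 83.8% and 58.5% for regions opened by Ras alone and 43.7% and 24.1% for those opened by TGF-β alone. With equal list lengths the same order of the 6 classes held, with 58.5% for opened alike, 35.6% for opened by Ras alone and 13.2% for opened by TGF-β alone.

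**Figure D4:**
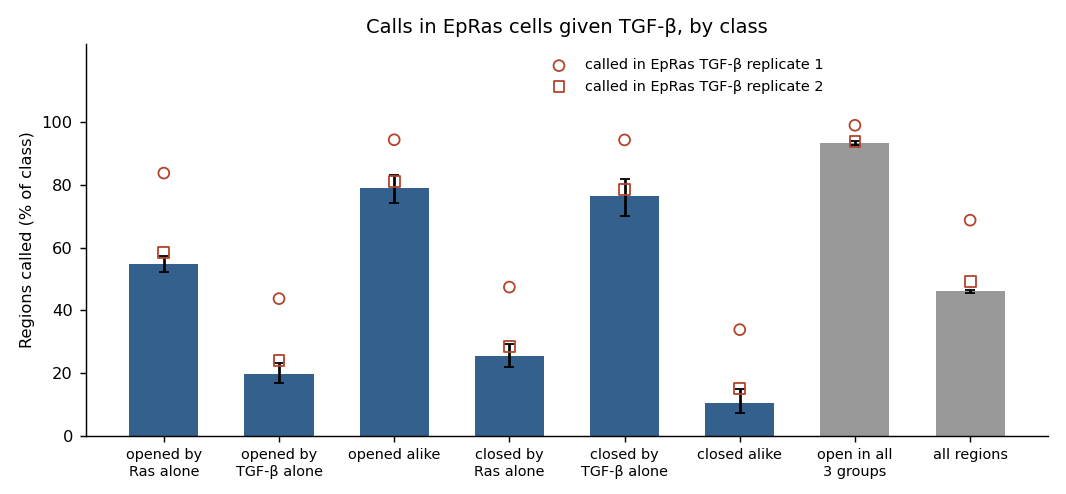
Bars give the share of the regions of a class (vertical axis, percent, from 0) that were called in both libraries of EpRas cells given TGF-β, with 95% Wilson intervals, and open symbols give the share called in each library. Regions opened by TGF-β alone (19.8%) and closed alike (10.5%) were rarely called, and regions opened alike (79.0%) and closed by TGF-β alone (76.5%) mostly were.

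Finally, the 4555 regions open in all 6 libraries were compared by rank, to ask whether regions shared by the groups differed in score. Here the percentile of a region is its place among these 4555 regions in a library, not in the whole list. No region passed an adjusted p of 0.05 in limma's moderated test with Benjamini-Hochberg adjustment, 0% of those tested, between EpRas and TGF-β-treated EpH4 cells, between EpRas and untreated EpH4 cells or between treated and untreated EpH4 cells. At an unadjusted p under 0.05 there were 580 (12.7%), 525 (11.5%) and 366 (8.04%) regions, and any 2 of these comparisons share a group of libraries. Of the 580, 278 were higher with Ras alone and 302 with TGF-β alone, and the smallest adjusted p was 0.276. Among the 580, the E-box was in 23.1% of 130 distal regions with the higher rank in EpRas cells. It was in 38.9% of 180 with the higher rank in TGF-β-treated EpH4 cells, against 29.3% of all distal regions tested. The TEAD motif was in 18.5% and 20.6% of these 2 sets, against 15.4%. Regions picked at an unadjusted p from the same libraries give no separate support for the shares above.

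The regions with the smallest p had wide gaps between groups and adjusted p of 0.276 in limma. The promoter of Rbfox2, a splicing regulator that is known to act in EMT, stood at 87.4 and 86.3 in EpRas cells, at 15.3 and 15.7 in TGF-β-treated and at 58.9 and 71.1 in untreated EpH4 cells, a difference of 71.3 ± 8.98 percentile points (SE) between the first 2 groups. A region 17.3 kb upstream of Uaca stood at 92.3 and 90.4 in EpRas cells, and at 20.4 and 4.96 in TGF-β-treated cells. The promoter of Kctd7, a potassium channel tetramerization domain protein, had the opposite order, with 13.5 and 9.52 in EpRas cells against 89.1 and 97.8 with TGF-β and 82.5 and 79.9 in untreated EpH4 cells. The Ppp1cb promoter, of a catalytic subunit of protein phosphatase 1, stood at 82.0 and 79.7 with TGF-β alone, at 11.2 and 11.7 in EpRas and at 1.32 and 18.3 in untreated EpH4 cells. In the 20 leading regions the 2 groups never overlapped, as their choice requires, and untreated EpH4 cells sided now with one and now with the other.

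**Figure D5:**
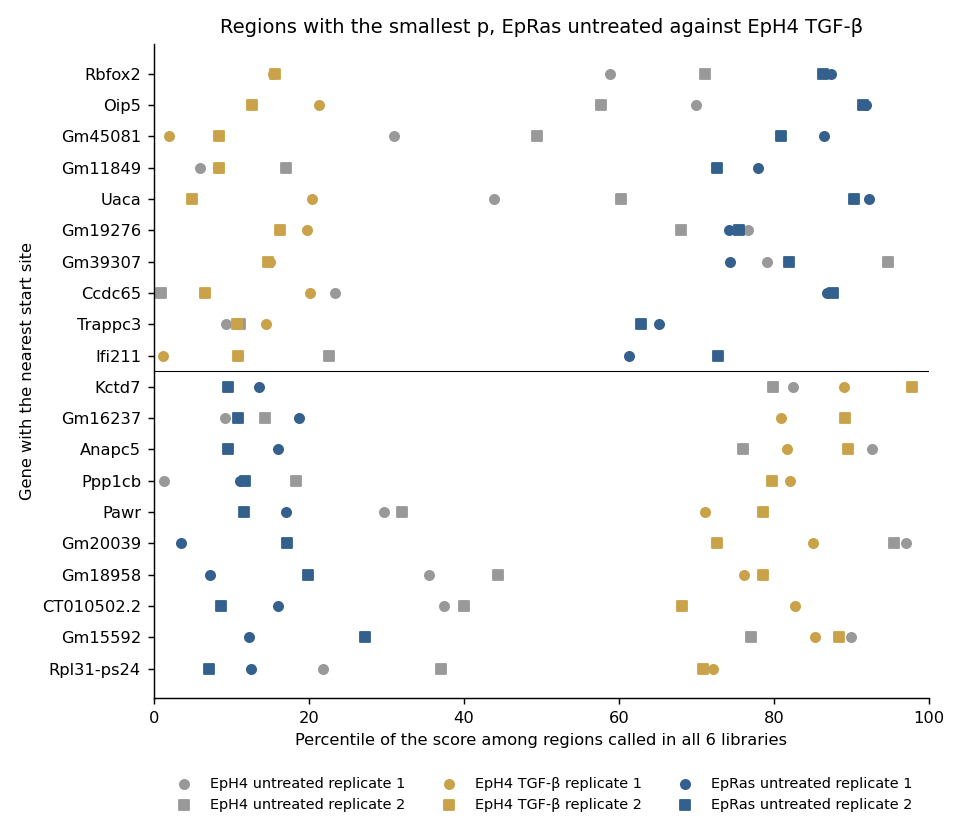
Symbols give the score percentile among the regions open in all 6 libraries (horizontal axis, 0 to 100) of each of 6 libraries at the 10 regions per direction with the smallest p between EpRas (blue) and TGF-β-treated EpH4 cells (yellow), with untreated EpH4 cells in grey and the replicates as circles and squares. The upper 10 are higher in EpRas cells, such as Rbfox2, and the lower 10 are higher with TGF-β, such as Kctd7.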

How the data were processed

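FAIRE DNA was measured in 2 libraries per group. The authors aligned reads with Bowtie2 to mm10 and called peaks in each library with MACS2 2.0.9, per the submitters' processing notes and the study's methods. The deposited score of a peak (column 5) is not defined in the sources used here and served only as a rank within its list. The files hold no counts, so that depth is unknown. Peaks were merged at 1 bp, annotated with GENCODE basic genes of GRCm38 (promoters within 2 kb of a start site) and searched for motifs in 500 bp, with Python 3.11.15, pandas 2.3.3, numpy 2.4.6 and scipy 1.17.1. Sequences are from GRCm38, the build of mm10. Percentiles were tested with limma 3.58.1 in R 4.3.3, which was tested on simulated data, and single values by exact permutation. The sources call replicates biological without saying whether cultures were separate, so that p-values measure only the spread between libraries.

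The rule for named regions took 5 regions and 5 genes per class, class regions of the gene lists, 10 regions per direction by p, and Cdh1, Cdh2, Fn1, Esrp2, Mmp13, Etv4, Etv5 and Gapdh; examples are given. The members and lists were chosen with earlier results of these data known. Alternatives were equal list lengths, a score limit, other overlap, promoter, motif and class limits, a replicate block and leaving out each library. Some regions and sequences are not reported here.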

Additional observations from a re-analysis of the deposited data

How the results depend on the processing

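No read depth is known, and a missing peak cannot be told apart from one below the limit of a list, so that list length and single libraries set the class counts. With equal list lengths, Ras alone opened 784 regions and 171 were opened alike. At or above the pooled median score of 14.75, the counts of regions opened by Ras alone, by TGF-β alone and alike were 730, 257 and 174, and those closed 185, 94 and 115. Where not open meant not called in both replicates, they were 3578, 1906 and 1269, and 1372, 1277 and 1373. Leaving out single libraries gave 1456 to 4299 opened by Ras alone, 696 to 3473 by TGF-β alone and 405 to 952 alike, and 628 to 1137, 257 to 1163 and 318 to 1365 closed. The highest values came without the second EpRas, the second TGF-β, the second TGF-β, the first EpRas, the first TGF-β and the first untreated EpH4 replicate, in this order. Without the second untreated EpH4 replicate 825 regions were opened alike, 420 closed by TGF-β alone and 1135 closed alike. These fits call a group from 1 library.

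EpRas regions missing with TGF-β were 44.4% with equal lists, 61.0% with the score limit and 22.7% to 59.6% without single libraries. TGF-β regions missing in EpRas cells were 44.1%, 43.9% and 23.99% to 53.8%. Calls in EpRas cells given TGF-β were, with equal lists, 35.6%, 13.2% and 58.5% of regions opened by Ras alone, by TGF-β alone and alike, and 15.9%, 56.3% and 4.88% of those closed. With the score limit they were 29.6% of regions opened by TGF-β alone, 68.1% of those closed by TGF-β alone and 27.8% of those closed alike. In 1 library at a time they were 58.5% to 83.8%, 24.1% to 43.7% and 81.2% to 94.4% opened, and 28.5% to 47.4%, 78.6% to 94.4% and 15.2% to 33.9% closed.

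The AP1 difference between libraries changed sign, to 0.16 percentage points with equal lists, 0.50 with the score limit and -0.866 to 0.511 without single libraries. So did the log2 difference in peak number, -0.219 to 0.509, and the CEBP share, -0.0189 to 0.00204. The cause was not tested. With a replicate block, 0 regions passed the adjusted p in limma, and 507, 470 and 314 an unadjusted p under 0.05. Same-numbered libraries did not deviate together in rank among the 4555 shared regions (correlations -0.0005, 0.0189 and -0.0038). Such ranks leave out list length, so that they cannot exclude a pairing of the samples by number. Replicate 1 had the longer list in every group but untreated EpH4 cells, and replicate 2 had the higher distal AP1 share in every group. An overlap minimum on the shorter peak left the class counts as they were by construction. Limits on the coverage of a region and on the moderation of the spread were added after seeing the data; the latter gave 446, 415 and 275 regions at an unadjusted p under 0.05 and 0 adjusted.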
